A study of Mus musculus with 18 samples.

Results

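The genes described here are the phosphatases and adaptor proteins that switch off ERK signalling and that are themselves switched on by it: the dual-specificity phosphatases Dusp4, Dusp5 and Dusp6, the Sprouty genes Spry1, Spry2 and Spry4, and the Spred genes Spred1, Spred2 and Spred3. They are 9 of the 18193 genes that had a probe set with a single gene symbol, and for each gene the brightest such probe set over all arrays was used. Total RNA of pieces of MC38 tumors was measured on 18 Affymetrix mouse expression arrays, 1 array per animal. MC38 is a mouse colon carcinoma line, and the cells were injected subcutaneously with Matrigel into C57BL/6-Ly5.1 mice aged 6 to 12 weeks. Tumors of the MEKi/CD40 group (n = 4) came from mice given the MEK inhibitor GDC-0623 (30 mg/kg daily for about 2 weeks) with the agonist anti-CD40 antibody. MEKi mice (n = 5) received GDC-0623 with a control antibody, anti-CD40 mice (n = 4) received the MCT vehicle with the anti-CD40 antibody, and control mice (n = 5) received vehicle with the control antibody, which was an IgG. Antibodies were injected on treatment days 3, 5 and 7 and again 1 day before sampling, which was on day 22 after inoculation. Levels are log2 signals, so a difference of 1 is a 2-fold difference, and levels of different genes cannot be set against each other because each probe set has its own brightness.

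ERK is the last kinase of the Ras, RAF, MEK and ERK cascade, through which growth factor receptors drive proliferation. Active ERK induces its own inhibitors. Dusp6 removes phosphate from ERK in the cytoplasm, Dusp5 does so in the nucleus, and Dusp4 is a nuclear phosphatase that acts on ERK and on other MAP kinases. Sprouty proteins block the cascade between receptor and RAF, and Spred proteins bring the Ras inhibitor neurofibromin to the membrane. Because their transcripts depend on ERK output, these genes are widely used to read MEK inhibition in tumors, and the comparison asked how their levels stood in tumors under the inhibitor, the antibody or both.

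The tumor pieces held several cell types, so fewer cells of a type and less RNA per cell cannot be told apart. Of 7 epithelial markers, 6 (Epcam, Krt8, Krt18, Krt19, Cldn4 and Cldn7) were below a log2 signal of 3 on all 18 arrays, and Cdh1 lay between 4.35 and 6.89, so that the labelled carcinoma showed few epithelial transcripts. Animal numbers in the labels fall into a series of 7500 to 7700 (all MEKi/CD40 and anti-CD40 mice, 2 MEKi and 2 control mice) and a 7800 series (3 MEKi and 3 control mice). The labels do not say whether this marks a batch.

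The sequences around the start sites of 3 of the genes are shown because these genes had the clearest differences or tracked ERK target genes most closely among those with a promoter entry. Each runs from 250 bases before to 50 bases after the start (RefSeq, GRCm38.p6), with capitals marking a match to a motif used by factors under ERK control. The motifs searched on both strands were the ETS core CCGGAA (in 15.2% of 27025 promoters of the same length), the CArG box bound by serum response factor (1.57%), the cyclic AMP response element TGACGTCA (1.88%) and the AP-1 site TGANTCA (7.93%).
Dusp6, chr10:99262981-99263280, plus strand: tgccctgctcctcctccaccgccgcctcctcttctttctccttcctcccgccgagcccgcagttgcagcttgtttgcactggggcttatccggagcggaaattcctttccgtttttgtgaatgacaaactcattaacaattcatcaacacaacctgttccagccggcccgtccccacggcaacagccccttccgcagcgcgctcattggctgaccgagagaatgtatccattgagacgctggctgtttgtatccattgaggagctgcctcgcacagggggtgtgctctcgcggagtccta
Dusp5, chr19:53528895-53529194, plus strand: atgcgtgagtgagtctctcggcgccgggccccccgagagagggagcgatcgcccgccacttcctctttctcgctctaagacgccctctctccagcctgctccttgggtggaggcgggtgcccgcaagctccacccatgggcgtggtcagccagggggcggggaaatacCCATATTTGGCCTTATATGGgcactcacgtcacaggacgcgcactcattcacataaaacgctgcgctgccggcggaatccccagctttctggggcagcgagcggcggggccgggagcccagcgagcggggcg
Spry2, chr14:105896770-105897069, minus strand: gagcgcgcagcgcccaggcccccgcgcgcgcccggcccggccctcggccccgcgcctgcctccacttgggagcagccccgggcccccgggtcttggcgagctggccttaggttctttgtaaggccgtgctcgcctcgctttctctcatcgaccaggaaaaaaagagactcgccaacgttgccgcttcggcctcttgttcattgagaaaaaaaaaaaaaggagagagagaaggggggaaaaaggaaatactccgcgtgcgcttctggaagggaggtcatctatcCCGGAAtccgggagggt
The Dusp5 window held 2 adjoining CArG boxes, the first base of each lying 82 and 72 bases before the start. The Spry2 window held 1 ETS core, 34 bases into the transcript. No match to these letters lay in the windows of Dusp6, Spry1, Spred1, Spred2 or Spred3.

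The 3 phosphatases had their lowest mean levels in MEKi/CD40 tumors, and for Dusp4 the difference from control tumors passed the test. Dusp4 (chr8:34807610-34819894) stood at 8.59, 8.87, 9.35 and 9.07 in MEKi/CD40 tumors, at 9.38, 9.53, 10.08, 9.48 and 9.94 in MEKi tumors, at 9.38, 9.72, 9.66 and 9.62 in anti-CD40 tumors, and at 9.77, 9.90, 10.15, 9.74 and 9.68 in control tumors. Every MEKi/CD40 tumor lay below every tumor of the other groups, and the other 3 groups overlapped. Dusp4 fell by 0.88 ± 0.17 (SE) on the log2 scale in MEKi/CD40 tumors against control tumors, which is 1.84-fold lower (limma, adjusted p = 0.0128). Neither single treatment gave a called difference: MEKi tumors differed from control tumors by -0.17 ± 0.16 (SE, adjusted p = 0.629) and anti-CD40 tumors by -0.25 ± 0.11 (SE, adjusted p = 0.927). Against the single treatments, MEKi/CD40 tumors differed by -0.71 ± 0.21 from MEKi tumors (SE, adjusted p = 0.125) and by -0.62 ± 0.17 from anti-CD40 tumors (SE, adjusted p = 0.071), neither past the threshold of 0.05.

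Dusp6 (chr10:99263231-99267489), whose promoter window is printed above, read 10.33, 11.09, 12.26 and 11.82 in MEKi/CD40 tumors. It read 12.28, 12.53, 11.97, 12.73 and 12.54 in MEKi tumors, 12.28, 12.55, 12.55 and 12.41 in anti-CD40 tumors, and 12.81, 12.79, 12.69, 12.39 and 12.59 in control tumors. All MEKi/CD40 tumors lay below all control and anti-CD40 tumors, but the spread among them was wide, and the third MEKi/CD40 tumor lay within the MEKi range. The difference between MEKi/CD40 and control tumors was -1.28 ± 0.37 (SE, 2.43-fold, 95% interval -2.15 to -0.41), and its adjusted p of 0.0625 missed the threshold. It passed when only probe sets with a log2 signal of at least 6 on at least 4 arrays were tested (adjusted p = 0.0127, with 46.9% of those probe sets called), and when all 18 arrays shared 1 estimate of spread (0.00456, with 21.5% of all probe sets called). MEKi tumors differed from control tumors by only -0.24 ± 0.15 (SE, adjusted p = 0.455) and anti-CD40 tumors by -0.21 ± 0.10 (SE, adjusted p = 0.927), and neighbouring groups in the order control, anti-CD40, MEKi and MEKi/CD40 overlapped throughout.

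Dusp5 (chr19:53529145-53541809), the gene with 2 CArG boxes in the window above, read 6.18, 6.59, 8.14 and 6.72 in MEKi/CD40 tumors. In the other groups its range was 7.41 to 7.84 in MEKi tumors, 7.14 to 8.07 in anti-CD40 tumors and 7.41 to 7.99 in control tumors. In MEKi/CD40 tumors 3 values lay below all others, and the third tumor held the highest value of all 18. The difference from control tumors was -0.73 ± 0.38 (SE, adjusted p = 0.318), and without the third MEKi/CD40 tumor it was -1.14 (adjusted p = 0.00731). The 4 MEKi/CD40 tumors took the same order in Dusp4, Dusp5 and Dusp6, with the first tumor lowest, then the second, the fourth and the third. Leaving the third out also brought Dusp6 past the threshold, at -1.57 (adjusted p = 0.0197), in a fit that called 17.3% of all probe sets. This tumor was singled out by its own values of these genes, so the fits without it are no separate test. The third tumor also had the highest mean of 9 macrophage markers, 12.02 against 10.53, 10.67 and 10.91 in the other MEKi/CD40 tumors and 10.98 to 11.44 in control tumors, with Cd68 at 13.06 against 11.17 to 11.36 in the other MEKi/CD40 tumors. The part of these cells in its levels was not tested.

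**Figure D1:**
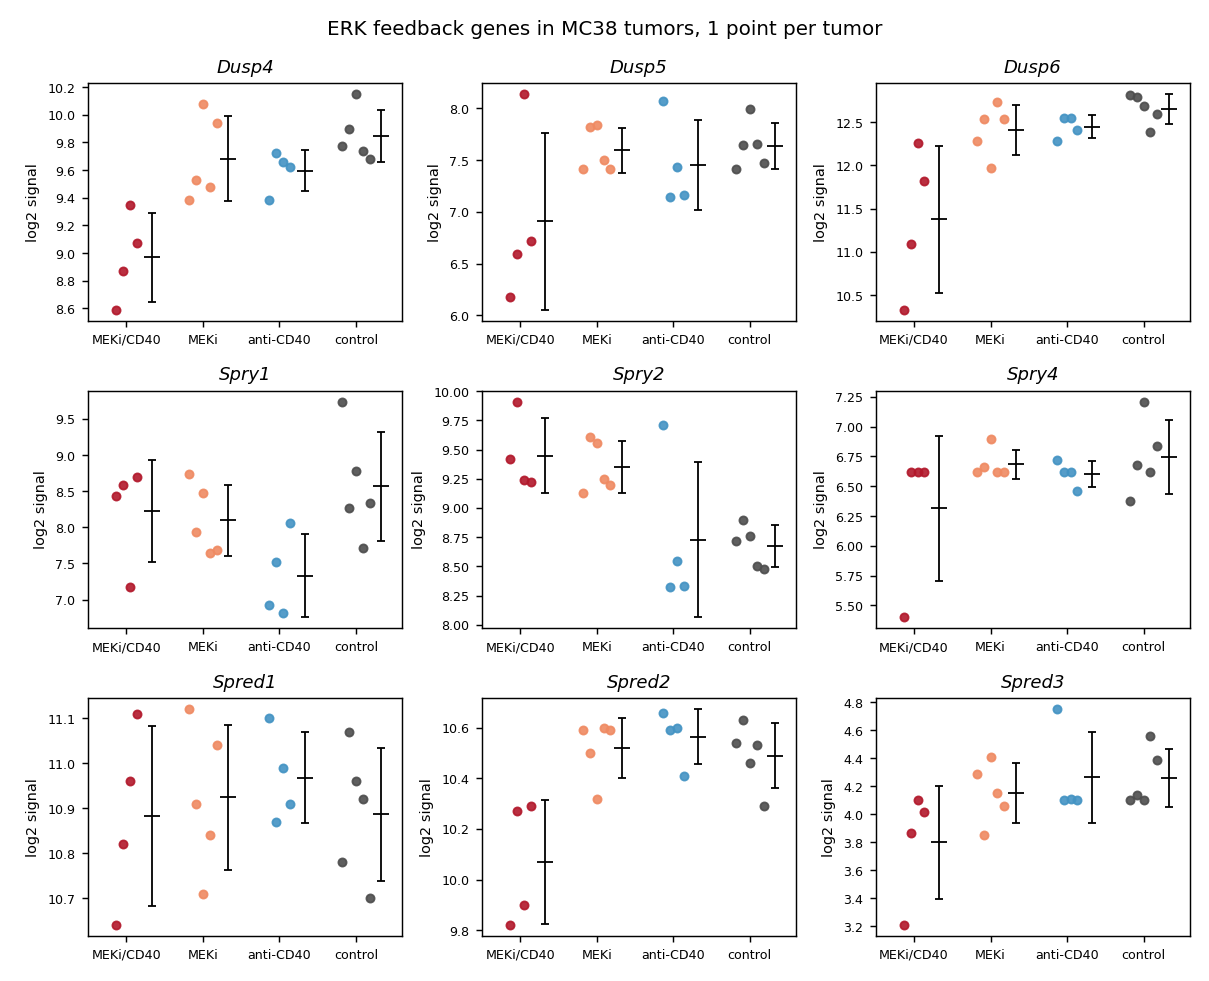
Log2 signal (vertical axis, a separate scale for each gene) of the 9 genes in the tumors of the 4 groups, 1 point per tumor, with the group mean and SD as a bar at the right of each group. Dusp4 in MEKi/CD40 tumors (8.59 to 9.35) lies below all other tumors, and Spry2 lies higher in MEKi/CD40 (9.22 to 9.91) and MEKi tumors (9.13 to 9.61) than in control tumors (8.48 to 8.90).

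Spry2 went the other way. Spry2 (chr14:105891947-105896819), an adaptor that binds the ubiquitin ligase Cbl and Grb2, read 9.42, 9.91, 9.24 and 9.22 in MEKi/CD40 tumors, 9.13, 9.61, 9.56, 9.25 and 9.20 in MEKi tumors, 9.71, 8.32, 8.55 and 8.33 in anti-CD40 tumors, and 8.72, 8.90, 8.76, 8.50 and 8.48 in control tumors. All tumors under the inhibitor, alone or with the antibody, lay above all control tumors, and 1 anti-CD40 tumor lay among them. Spry2 rose by 0.68 ± 0.12 (SE) in MEKi tumors against control tumors, 1.6-fold (limma, adjusted p = 0.0177), and by 0.78 ± 0.16 (SE) in MEKi/CD40 tumors, 1.71-fold (adjusted p = 0.0193). MEKi/CD40 and MEKi tumors differed by 0.10 ± 0.18 (SE, 95% interval -0.31 to 0.51, adjusted p = 0.964). The anti-CD40 tumors differed from control tumors by 0.06 ± 0.30 (SE, 95% interval -0.64 to 0.75), and by -0.27 without the tumor at 9.71. Without that tumor Spry2 was higher in MEKi/CD40 than in anti-CD40 tumors by 1.05 (adjusted p = 0.0371) and in MEKi than in anti-CD40 tumors by 0.95 (adjusted p = 0.0315), against 0.72 (0.319) and 0.62 (0.355) with it. That tumor was singled out by its own Spry2 value, so the fits without it are no separate test. The call between MEKi/CD40 and control tumors was lost without the first MEKi/CD40 tumor (adjusted p = 0.0515). The other probe set of Spry2 was below 3 on all 18 arrays, so these differences rest on 1 probe set.

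Spry1 (chr3:37639947-37644599), the Sprouty member known from kidney development, varied widely between tumors of each group. It read 8.43, 8.58, 7.18 and 8.70 in MEKi/CD40 tumors, 8.74, 7.93, 8.48, 7.64 and 7.69 in MEKi tumors, 6.92, 7.52, 6.82 and 8.06 in anti-CD40 tumors, and 9.74, 8.27, 8.78, 7.72 and 8.33 in control tumors. The lowest group mean was that of anti-CD40 tumors, but its highest tumor overlapped every other group. The difference of anti-CD40 from control tumors was -1.24 ± 0.45 (SE, 95% interval -2.29 to -0.19, adjusted p = 0.828), that of MEKi tumors -0.47 ± 0.39 (SE, adjusted p = 0.629) and that of MEKi/CD40 tumors -0.35 ± 0.48 (SE, adjusted p = 0.8).

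Spry4, a further Sprouty gene, could not be followed. The brightest of its 4 probe sets read exactly 6.62 on 9 of 18 arrays and within 0.1 of that on 12, and the other 3 had mean signals below 3. With the same value on so many arrays, no difference is given. The lowest value was that of the first MEKi/CD40 tumor at 5.40, and the highest that of a control tumor at 7.21.

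Among the Spred genes, Spred1 (chr2:117121071-117182279), whose loss in humans causes Legius syndrome, differed little between groups. Its means were 10.88 ± 0.20 in MEKi/CD40 tumors, 10.92 ± 0.16 in MEKi tumors, 10.97 ± 0.10 in anti-CD40 tumors and 10.89 ± 0.15 in control tumors (SD, n = 4, 5, 4 and 5). The interval of the difference from control was -0.27 to 0.26 for MEKi/CD40, -0.18 to 0.26 for MEKi and -0.12 to 0.28 for anti-CD40 tumors (95%, log2 scale). The gene has 8 probe sets, of which 2 were near the lowest signal, and over the other 5 the difference between MEKi/CD40 and control tumors ran between -0.24 and 0.19.

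Spred2 (chr11:19924442-20024026) read 9.82, 10.27, 9.90 and 10.29 in MEKi/CD40 tumors, 10.59, 10.50, 10.32, 10.60 and 10.59 in MEKi tumors, 10.66, 10.59, 10.60 and 10.41 in anti-CD40 tumors, and 10.54, 10.63, 10.46, 10.53 and 10.29 in control tumors. The MEKi/CD40 tumors lay below all tumors of both single treatments and reached the lowest control tumor. The difference of MEKi/CD40 from control tumors was -0.42 ± 0.12 (SE, adjusted p = 0.0623), that from anti-CD40 tumors -0.49 ± 0.13 (SE, adjusted p = 0.0618) and that from MEKi tumors -0.45 ± 0.12 (SE, adjusted p = 0.103). With the filter on low signals all 3 passed (adjusted p = 0.0192, 0.0173 and 0.035), where 46.9%, 40.7% and 16.6% of the probe sets tested were called. A second and dimmer probe set of the gene gave -0.34 against control tumors (adjusted p = 0.545), -0.10 against anti-CD40 tumors (adjusted p = 1) and -0.68 against MEKi tumors (adjusted p = 0.154). Spred3 (chr7:29157783-29170070), the third gene of the family, was near background at 3.21 to 4.75, repeated the value 4.10 on 5 arrays, and is given no difference.

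Counted together, 2 of the 9 genes passed the test between MEKi/CD40 and control tumors, 1 higher (Spry2) and 1 lower (Dusp4), where 14.9% of all 45037 probe sets passed (5.5% higher and 9.37% lower). Between MEKi and control tumors 1 of 9 passed (Spry2), against 7.83% of all probe sets. None of the 9 passed between anti-CD40 and control tumors (0% of all probe sets, although 2423 had an unadjusted p under 0.05), between MEKi/CD40 and anti-CD40 tumors (11.6% of all), between MEKi/CD40 and MEKi tumors (2.5%) or between MEKi and anti-CD40 tumors (5.09%). The shares called among so few genes are close to those of the whole array. The median difference of the 7 genes given one, all but Spry4 and Spred3, was -0.42 between MEKi/CD40 and control tumors, -0.04 between MEKi and control tumors and -0.19 between anti-CD40 and control tumors, beside a median of 0 over all probe sets each time. Over the 17421 probe sets that passed the filter, which 8 of the 9 genes did, the medians of all probe sets were -0.07, -0.02 and -0.01.

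**Figure D2:**
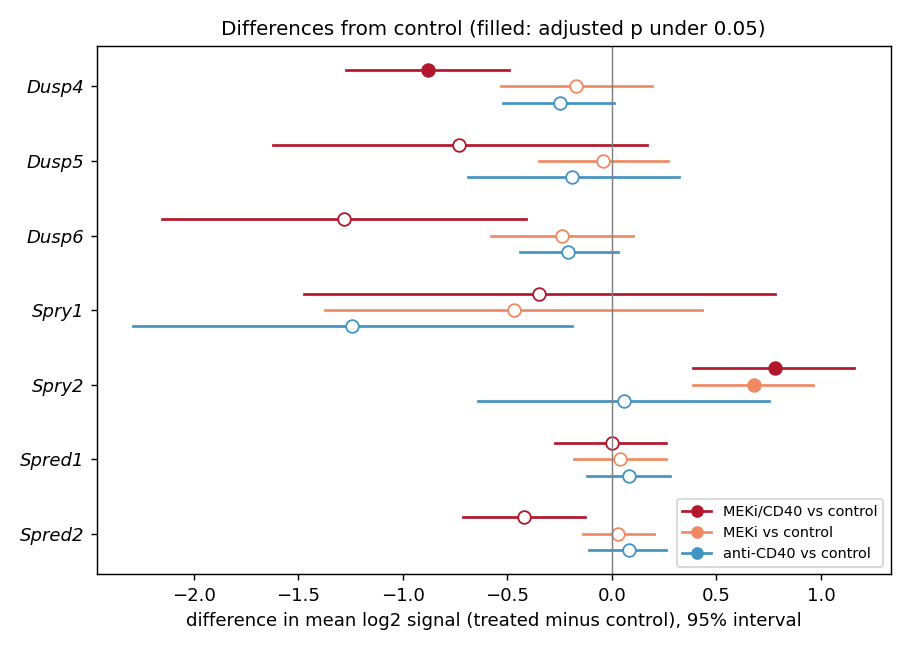
Difference in mean log2 signal from control tumors (horizontal axis, points) with its 95% interval (lines) for 7 genes and the 3 treated groups, with a filled point where the adjusted p was under 0.05. Spry2 in both groups given the inhibitor (0.78 and 0.68) and Dusp4 in MEKi/CD40 tumors (-0.88) have filled points.

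Whether both drugs together gave more or less than the sum of the single effects was tested as an interaction over all 18 arrays, which called 2.64% of all probe sets and none of the 9 genes. The nearest was Spred2, with an interaction of -0.52 ± 0.14 on the log2 scale (SE, 95% interval -0.84 to -0.21, adjusted p = 0.0715, and 0.0324 with the filter on low signals, which called 10% of the probe sets tested). For Dusp6 it was -0.83 ± 0.41 (SE, adjusted p = 0.379), for Dusp4 -0.46 ± 0.24 (SE, adjusted p = 0.411) and for Spry1 1.36 ± 0.60 (SE, adjusted p = 0.294). For Spry2 it was 0.04 ± 0.35 (SE, 95% interval -0.71 to 0.79).

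Other genes of the pathway moved in both directions. Of 10 further MAP kinase phosphatases, 2 were lower and 2 higher in MEKi/CD40 than in control tumors. Dusp9, a phosphatase of ERK and its relatives, fell by 2.18 ± 0.26 (SE, 4.54-fold, adjusted p = 0.00255), with a mean of 8.68 in MEKi/CD40 tumors and 10.86 in control tumors. Dusp14 fell by 1.60 ± 0.14 (SE, 3.04-fold, adjusted p = 0.00104). Dusp14, known to act on JNK and in T cell receptor signalling, had 6.12 to 6.57 in MEKi/CD40 tumors, below the 7.37 to 8.26 of all other tumors. Dusp9 also fell by 1.18 ± 0.15 in MEKi tumors (SE, adjusted p = 0.00658). Dusp3, which acts on ERK and JNK, rose by 0.86 ± 0.13 (SE, adjusted p = 0.00525), and Dusp1, an early response phosphatase, by 1.07 ± 0.24 (SE, adjusted p = 0.0241), a call lost in 6 of 9 fits that left out 1 tumor. In the interaction test Dusp14 (-0.86 ± 0.19, SE, adjusted p = 0.0323) and Dusp3 (0.74 ± 0.18, SE, adjusted p = 0.0396) passed, calls lost in 9 and 13 of 18 fits that left out 1 tumor.

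Of 18 measured genes known to be transcribed in response to ERK, 3 were lower and none was higher in MEKi/CD40 than in control tumors, and 1 was lower in MEKi than in control tumors, with list medians of -0.14 and -0.02. Against anti-CD40 tumors some targets were higher: Phlda1 by 0.80 ± 0.18 in MEKi/CD40 tumors (SE, adjusted p = 0.0373) and by 0.95 ± 0.19 in MEKi tumors (SE, adjusted p = 0.0357), and the early response gene Ier3 by 1.58 ± 0.33 in MEKi tumors (SE, adjusted p = 0.0422). Myc was lower in MEKi/CD40 than in anti-CD40 tumors, with a difference of -0.52 ± 0.12 (SE, adjusted p = 0.0415). For Etv5 that difference was -1.37 ± 0.35 (SE, adjusted p = 0.0561). Etv5, an ETS transcription factor, read 8.39, 8.85, 9.70 and 9.89 in MEKi/CD40 tumors, 10.22, 9.96, 9.44, 10.14 and 10.19 in MEKi tumors, 10.64, 10.65, 10.59 and 10.42 in anti-CD40 tumors, and 10.52, 11.01, 10.60, 10.77 and 10.72 in control tumors. All tumors given the inhibitor lay below all tumors that were not. Etv5 fell by 1.52 ± 0.32 (SE, 2.86-fold, adjusted p = 0.0187) in MEKi/CD40 tumors and by 0.73 ± 0.16 (SE, 1.66-fold, adjusted p = 0.0329) in MEKi tumors, each against control tumors. The call in MEKi/CD40 tumors was lost without the second MEKi/CD40 tumor (adjusted p = 0.0548), and that in MEKi tumors in 7 of 10 fits that left out 1 tumor.

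Epha2, an ephrin receptor induced by ERK, fell by 1.26 ± 0.29 (SE, adjusted p = 0.025, lost in 6 of 9 fits without 1 tumor) and the transcription factor Myc by 0.60 ± 0.09 (SE, adjusted p = 0.00635) in MEKi/CD40 tumors against control tumors. Cyclin D1 (Ccnd1) differed by -0.69 ± 0.21 (SE, adjusted p = 0.0769). Egr1, an immediate early factor, read 4.28, 8.44, 10.21 and 8.67 in MEKi/CD40 tumors against 9.33 to 10.42 in control tumors, a difference of -1.96 ± 1.11 (SE, adjusted p = 0.369). Under the inhibitor alone the differences from control tumors were -0.08 ± 0.18 for Epha2, -0.11 ± 0.07 for Ccnd1 and 0.08 ± 0.33 for Egr1 (SE), none of them called. With the antibody alone Epha2 differed from control tumors by -0.69 ± 0.18 (SE, adjusted p = 0.649). The first MEKi/CD40 tumor was the lowest of its group for Egr1, Etv5, Epha2 and Ccnd1, as it was for the 3 phosphatases. Etv4, the relative of Etv5, was near background at 2.83 to 4.21.

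**Figure D3:**
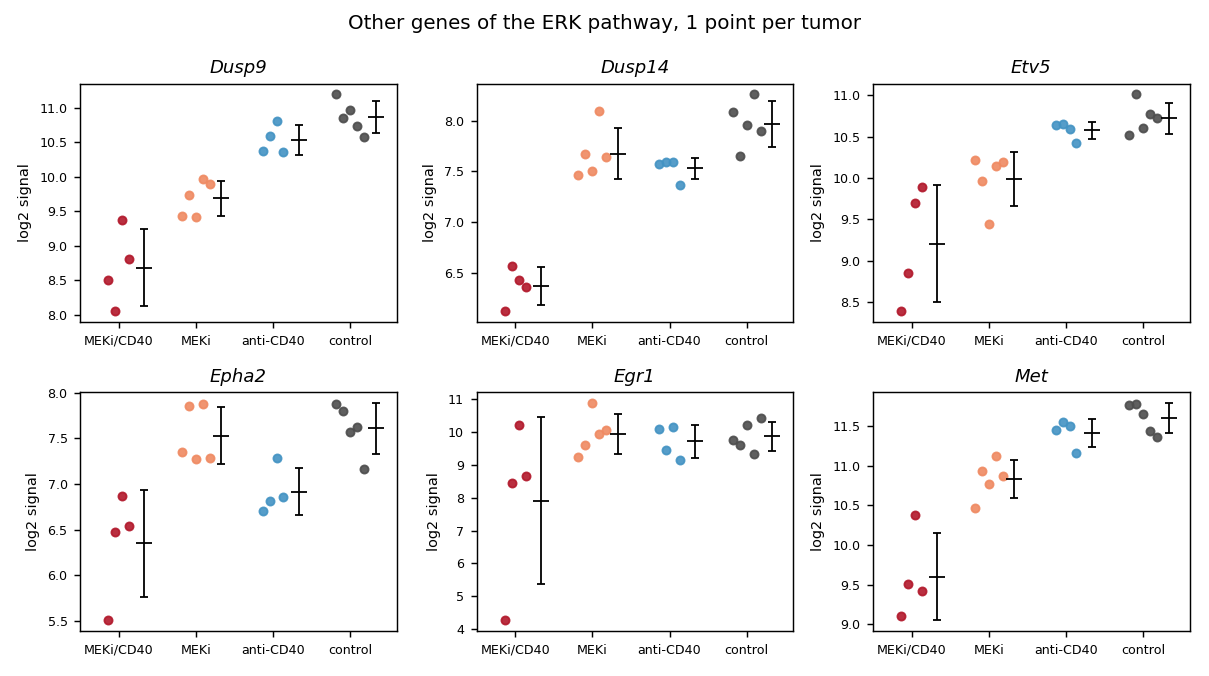
Log2 signal (vertical axis, a separate scale for each gene) of 6 other genes of the ERK pathway in the tumors of the 4 groups, 1 point per tumor, with the group mean and SD as a bar at the right of each group. Dusp9 and Etv5 lie lower in both groups given the inhibitor than in control tumors, and Egr1 has 1 MEKi/CD40 tumor at 4.28.

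Upstream of ERK, 2 of 13 further inhibitors of the pathway were higher and 3 lower in MEKi/CD40 than in control tumors, among them Errfi1, an inhibitor of the EGF receptor (1.19 ± 0.31, SE, adjusted p = 0.0429, lost in 8 of 9 fits without 1 tumor), and Rgs2, a regulator of G protein signalling, which fell by 0.95 ± 0.16 (SE, adjusted p = 0.00793). Ppp2r1a, the scaffold of protein phosphatase PP2A, fell by 0.44 ± 0.08 (SE, adjusted p = 0.0122), and Rasa3, a Ras GTPase activator, rose by 0.64 ± 0.15 (SE, adjusted p = 0.0293, lost in 7 of 9 fits without 1 tumor). Of 13 measured genes of the cascade itself, 3 were higher (the scaffold gene Ksr1 by 0.75, the phosphatase gene Ptpn11 by 0.33 and the adaptor gene Gab1 by 0.41) and 1 lower (the adaptor gene Grb2, by -0.33), and 6 further cascade genes were not analysed here. In the 9 fits without 1 tumor these calls were lost 3 times for Ksr1, 6 times for Ptpn11, 7 times for Gab1 and 8 times for Grb2. Of 17 receptor tyrosine kinases 7 were higher and 2 lower. Met, the receptor of hepatocyte growth factor, fell by 2.00 ± 0.25 (SE, 3.99-fold, adjusted p = 0.00299) in MEKi/CD40 tumors and by 0.77 ± 0.13 (SE, adjusted p = 0.0153) in MEKi tumors. Egfr rose by 1.15 ± 0.12 (SE, adjusted p = 0.0016) in MEKi/CD40 tumors and by 0.65 ± 0.12 (SE, adjusted p = 0.0207) in MEKi tumors, and Pdgfra, a receptor of fibroblasts, by 0.87 ± 0.14 (SE, adjusted p = 0.00692) and 0.58 ± 0.12 (SE, adjusted p = 0.0287) in the same order. Without 1 tumor, the call in MEKi tumors was lost in 8 of 10 fits for Pdgfra and in 1 of 10, without the first control tumor, for Egfr (adjusted p = 0.0525). Tek, the angiopoietin receptor of endothelial cells, rose by 2.38 ± 0.44 (SE, adjusted p = 0.0117) in MEKi/CD40 tumors, with a control mean near background at 3.55. It was the only 1 of 10 endothelial markers to pass between MEKi/CD40 and control tumors, and the median difference of those markers was 0.13. Between anti-CD40 and control tumors no gene of the 5 lists of pathway genes passed.

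The 9 genes did not vary as 1 unit across the tumors. Over the 18 arrays, which share the group differences as well as the cell mixture of each tumor, Dusp6 correlated with Dusp4 at r = 0.802, with Dusp5 at 0.715 and with Spred2 at 0.713, but with Spry2 at -0.516. Within groups, after each group's mean was taken off, the same values were 0.466, 0.554, 0.303 and -0.255. The median over all 36 pairs was 0.364 over the 18 arrays and 0.262 within groups. Among 9414 other genes with a mean signal of at least 6, those closest to Dusp6 were the recombination gene Rad54l (r = 0.954), Ccnd1 (0.95) and the folate enzyme gene Shmt1 (0.948). Those closest to Dusp5 were Fosl1, a subunit of AP-1 (0.899), the EGF receptor ligand Ereg (0.89) and Nufip1 (0.867), those closest to Dusp4 were Piga (0.895), Kcne3 (0.887) and Hsph1 (0.871), and those closest to Spred2 were Septin10 (0.898), Ufsp2 (0.897) and Spcs2 (0.894). Spry2 lay closest to Akap2 (0.888), the integrin adaptor gene Fermt2 (0.879) and the transcription factor gene Ebf1 (0.878).

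Markers of proliferation and of some cell types moved with these differences. The mean log2 signal of 9 proliferation markers was 9.18 to 9.86 in MEKi/CD40 tumors, 9.96 to 10.53 in MEKi tumors, 10.88 to 11.26 in anti-CD40 tumors and 10.86 to 11.34 in control tumors, and all 9 fell both in MEKi/CD40 and in MEKi tumors against control tumors. Of 10 fibroblast markers, 8 rose in MEKi/CD40 tumors and 6 in MEKi tumors, and their mean was 12.17 to 12.82 in MEKi/CD40, 10.67 to 11.35 in MEKi, 9.49 to 10.18 in anti-CD40 and 8.98 to 9.73 in control tumors, with none of the 10 at the lowest signal on all arrays. Dusp6 correlated with the proliferation mean at r = 0.822 and with the fibroblast mean at -0.683 over the 18 arrays, Dusp4 at 0.719 and -0.676, and Spry2 at -0.721 and 0.651. Of 9 macrophage markers, 1 (Csf1r, by -0.71) was lower in MEKi/CD40 and 3 in MEKi than in control tumors, and their mean was 10.53 to 12.02 in MEKi/CD40, 10.18 to 11.05 in MEKi, 10.81 to 11.18 in anti-CD40 and 10.98 to 11.44 in control tumors. Of 10 epidermis markers, 2 were higher in MEKi/CD40 (Sbsn by 3.69 and Dmkn by 2.62) and 2 in MEKi tumors (Sbsn by 1.80 and Krt10 by 0.40), with means of 3.87 to 4.41 in MEKi/CD40, 3.39 to 4.43 in MEKi, 3.16 to 3.35 in anti-CD40 and 3.15 to 3.36 in control tumors. Krt1 and Sfn were below 3 on all 18 arrays, and Krt5, Lor, Krtdap and Perp on 16, 16, 17 and 17 of them, so the epidermis mean rests on few genes. Spry2 correlated with the macrophage mean at -0.544 and with the epidermis mean at 0.634, and Dusp6 at 0.361 and -0.621. Of 7 epithelial markers, 1 (Cdh1, by -1.20 ± 0.30, SE, adjusted p = 0.0349) was lower in MEKi/CD40 than in control tumors. The other 6 were below 3 on all 18 arrays, so the epithelial mean rests on Cdh1. That mean correlated with Dusp6 at 0.779, with Dusp4 at 0.512, with Spred2 at 0.681 and with Spry2 at -0.617. T cell and endothelial means correlated with Dusp6 at only -0.024 and 0.066, with Dusp4 at -0.185 and 0.011, and with Spry2 at -0.300 and -0.248. Spry1 correlated with the T cell mean at -0.470. None of 8 T cell markers passed between MEKi/CD40 and control tumors, and Cd4 among them was below 3 on all 18 arrays. The T cell mean was 5.43 to 6.80 in MEKi/CD40, 5.17 to 6.34 in MEKi, 5.65 to 7.18 in anti-CD40 and 4.70 to 6.10 in control tumors. The part of these cell types and of proliferation in the differences was not tested.

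**Figure D4:**
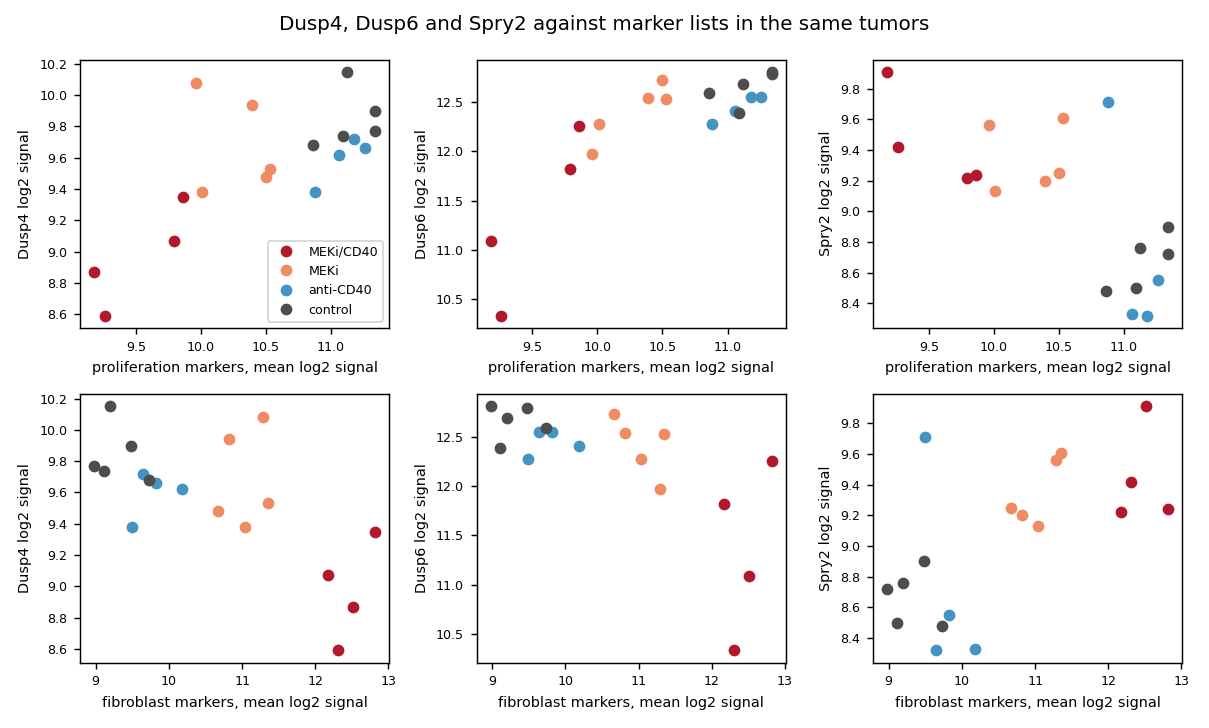
Log2 signal of Dusp4, Dusp6 and Spry2 (vertical axes) against the mean log2 signal of 9 proliferation markers (upper row) and 10 fibroblast markers (lower row) of the same tumor, 1 point per tumor and a color per group. MEKi/CD40 tumors lie at 9.18 to 9.86 on the proliferation axis and control tumors at 10.86 to 11.34, with MEKi tumors between them.

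Adipocyte markers were highest in single MEKi/CD40 tumors. The mean of 9 such markers was 3.66, 10.53, 4.88 and 6.60 in MEKi/CD40 tumors, against 3.62 to 5.08 in MEKi, 3.36 to 5.68 in anti-CD40 and 3.26 to 3.99 in control tumors, and skeletal muscle markers reached 8.24 in the fourth MEKi/CD40 tumor. No adipocyte marker passed the test between MEKi/CD40 and control tumors. Between MEKi and control tumors 1 of 9 did, Fabp4, which rose by 1.65 ± 0.28 (SE, 3.13-fold, adjusted p = 0.0148), and 4 of 5 MEKi tumors had an adipocyte mean above every control tumor. Without the 3 arrays that had the highest adipocyte mean (2 MEKi/CD40 and 1 anti-CD40), Dusp4 differed between MEKi/CD40 and control tumors by -0.88 (adjusted p = 0.0988), Dusp6 by -1.36 (0.214), Spry2 by 0.66 (0.0526) and Spred2 by -0.63 (0.0229).

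Animals of the 7500 to 7700 series alone (4 MEKi/CD40 and 2 control tumors) gave a difference of -0.87 for Dusp4 (adjusted p = 0.165), -1.43 for Dusp6 (0.367), 0.64 for Spry2 (0.291) and -0.52 for Spred2 (0.257). For Spry2 in MEKi against control tumors the difference was 0.56 within the 7500 to 7700 series (adjusted p = 0.64) and 0.76 within the 7800 series (0.247), and the 7800 split was added after the data were seen. Each of these 6 differences had the direction seen in the full groups, and none passed the test. The tumors are among those of the full groups, so the shared direction is partly built in.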

How the data were processed

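Total RNA of pieces of 18 snap-frozen tumors, 4 or 5 animals per group, was labelled with a 3′ IVT kit and hybridised to 1 array each. The authors deposited log2 signals per probe set, normalized by RMA (the method in the submitters' notes and in the study's methods, which name Chipster, with the version not given in the sources used here). Of all values, 34.4% lay at the lowest signal and 51.3% below 3, which RMA alone would not usually give. The background step is therefore uncertain, and differences between low signals may be compressed, which was not tested. Upper quartiles of the arrays lay between 8.14 and 8.25, and arrays of a group correlated at r = 0.987 to 0.998. The number of arrays limits the precision.

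Of 45101 probe sets, 64 controls were left out and 45037 tested. Of these, 34945 had 1 gene symbol, 932 several and 9160 none, and the brightest single-symbol probe set stood for a gene (names and coordinates from RefSeq, GRCm38.p6). Pairs of groups were compared with limma 3.58.1 in R 4.3.3 (two-sided, Benjamini-Hochberg adjustment over all probe sets, called at an adjusted p under 0.05), and the interaction was fitted over all 18 arrays. The code was tested on simulated data. Every adjusted p in the text is from limma. The 9 genes and all gene lists were chosen with earlier results of these data known. From each further list of pathway genes, up to 4 genes called between MEKi/CD40 and control tumors were named in order of p. Etv4, Etv5, Egr1, Ccnd1 and Epha2 were always named. For the other comparisons and for the proliferation and cell type markers only some called genes are named. A gene left unnamed there may therefore still have been called. For each of the 9 genes, the 3 genes with the highest Pearson r were taken.

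Alternatives were 1 fit of all arrays, the replicate number and the animal number series as blocks, each series alone, a filter on low signals, quantile and loess normalization, a floor of 4, a robust intensity trend, other probe sets, and leaving out the 3 arrays richest in adipocyte markers or 1 array at a time. Replicate numbers did not pair the tumors: over 25 pairs of arrays with the same number in different groups, deviations from the group means correlated at -0.399 to 0.296 (median -0.004).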

Additional observations from a re-analysis of the deposited data

Results flagged for a closer look

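In 4 of 36 groups checked (9 genes in 4 groups), 1 tumor stood far from the others of its group by a test that flags about 1 in 20 groups of continuous values by chance. That rate does not hold for Spry4 and Spred3, whose values repeat across arrays and which gave 3 of the 4. Spry2 read 9.71 in the first anti-CD40 tumor, with the nearest of the other 3 at 8.55. Spred3 read 4.75 in the same tumor, with the nearest at 4.11. Spry4 read 5.40 in the first MEKi/CD40 tumor, where the other 3 were at 6.62, and 6.90 in the third MEKi tumor, with the nearest at 6.66.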

How the results depend on the processing

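Of the 9 genes, 2 passed between MEKi/CD40 and control tumors. With all 18 arrays in 1 fit 4 passed (21.5% of all probe sets), and with the filter on low signals 4 of the 8 that remained (46.9% of the 17421 probe sets tested). Without the 3 adipocyte-rich arrays 1 passed (7.64% of all probe sets). With a block for the animal number series 0 passed (8.57%), as within the 7500 to 7700 series (1.58%). Without 1 tumor at a time 1 to 4 passed (1 without the first MEKi/CD40 tumor, 4 without the third, where 17.3% of all probe sets passed). Between MEKi and control tumors 1 passed, and 0 in the fit of all arrays (8.05% of all probe sets), within the 7500 to 7700 series (0.102%) or within the 7800 series (0.02%). Leaving out a tumor gave 1 each time. Between MEKi/CD40 and anti-CD40 tumors 3 passed in the fit of all arrays (20% of all probe sets) and 3 with the filter (40.7% of those tested), against 0. Between MEKi/CD40 and MEKi tumors 3 passed in the fit of all arrays (9.52%) and 2 with the filter (16.6%), against 0. Without 1 tumor 0 to 1 passed in both. Between MEKi and anti-CD40 tumors 0 to 1 passed without 1 tumor. For the interaction 1 passed with the filter (10% of those tested), 1 without the adipocyte-rich arrays (2.29% of all probe sets), and 0 to 1 without 1 tumor. With the replicate number as a block 0 of the 9 genes passed in either comparison with control (Dusp4 adjusted p = 0.068, Spry2 0.0791 and 0.0709). That block called 113 probe sets between MEKi/CD40 and control tumors, 108 of them among the 6698 called without it, and 0 between MEKi and control tumors, against 3525 without it. The cause was not tested.

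Called probe sets between MEKi/CD40 and control tumors numbered 3860 with the series as a block, 710 within the 7500 to 7700 series and 3439 without the adipocyte-rich arrays. Between MEKi and control tumors they numbered 46 within that series, 9 within the 7800 series, 5866 with the filter and 1267 with the robust trend. Between MEKi/CD40 and anti-CD40 tumors 5231 were called, against 8996 in the fit of all arrays, 1276 with the replicate block, 3310 with the trend and 407 without the adipocyte-rich arrays. Between MEKi/CD40 and MEKi tumors 1127 were called, and 0 (replicate block) to 4286 (fit of all arrays) under the alternatives. Between MEKi and anti-CD40 tumors 2292 were called, and 3 (replicate block) to 4879 (filter). The interaction called 1191, against 707 with the replicate block and 56 within the 7500 to 7700 series. Between anti-CD40 and control tumors 0 were called, and at most 28, within that series. Leaving out 1 tumor gave 4711 to 7812 between MEKi/CD40 and control, 1679 to 3326 between MEKi and control, 2704 to 6594 between MEKi/CD40 and anti-CD40, 29 to 850 between MEKi/CD40 and MEKi, and 197 to 1753 between MEKi and anti-CD40 tumors, and 618 to 1431 for the interaction.

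Directions turned only for small differences that passed no test. Between MEKi and control tumors, Dusp5 was 0.08, Spred2 -0.04 and Egr1 -0.26 within the 7500 to 7700 series, Epha2 was 0.03 within the 7800 series, and 2 other Spred1 probe sets gave -0.07 and -0.13. Without 1 tumor Dusp5 ranged between -0.10 and 0.05, Spred1 between -0.01 and 0.09, Spred2 between -0.02 and 0.08 and Egr1 between -0.15 and 0.25. Between anti-CD40 and control tumors, Spry2 was -0.08 and Spred2 -0.02 with the series as a block and within it, other probe sets gave -0.19 (Spred1) and -0.24 (Spred2), and Spry2 ranged between -0.27 and 0.19 without 1 tumor. Between MEKi/CD40 and MEKi tumors, Spry1 was -0.11 with the series block and within the series, and -0.29 without the adipocyte-rich arrays, where Spry2 was -0.02. Without 1 tumor Spry1 ranged between -0.03 and 0.47 and Spry2 between -0.06 and 0.17. Between MEKi and anti-CD40 tumors, Dusp4 was -0.14 with the series block and within the series, another Spred2 probe set gave 0.59, and without 1 tumor Dusp4 ranged between -0.01 and 0.16, Dusp6 between -0.12 and 0.07 and Spred2 between -0.10 and 0.01. In the interaction, Etv4 was -0.04 after quantile normalization, and Spry2 was -0.13 without the adipocyte-rich arrays and -0.11 to 0.37 without 1 tumor.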
